A study of Homo sapiens with 12 samples.

Results

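Replication origin and fork genes are described here through 7 members, namely CDC6, MCM3, CDC45, GINS2, MCM10, FEN1 and TYMS, out of 14582 genes measured. The members were a given list, chosen with earlier results of these data known. Each had 1 probe set, so the rule of taking the probe set with the highest mean over the 12 arrays left no choice, and all 7 were measured and tested. The cells were SK-MEL-2, an established human melanoma line, and total RNA was hybridised to Affymetrix arrays after 24 hours of treatment. There were 4 groups of 3 arrays. DMSO cells received vehicle only. DT cells received 100 nM dabrafenib, a RAF inhibitor, and 10 nM trametinib, which inhibits MEK1 and MEK2. E cells received 1 µM entinostat, an inhibitor of class I histone deacetylases, and DTE cells all 3 agents. No group received dabrafenib or trametinib alone. Sample titles describe biological replicates whereas the design text speaks of technical ones, so a p-value here reflects spread among these particular arrays, which may be technical, and the number of arrays limits the precision.

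A chromosome is copied once per cycle because loading and firing of its origins are separated in time. In G1, the origin recognition complex and the loaders CDC6 and CDT1 place the MCM2 to MCM7 ring on DNA as an idle helicase. In S phase, CDC45 and the GINS complex join the ring, MCM10 helps to start it, polymerases copy both strands, FEN1 trims the flaps between Okazaki fragments, and TYMS makes the thymidylate that the polymerases use. Many of these genes are known targets of E2F transcription factors, which are released when cyclin D kinases, acting downstream of mitogen signalling, phosphorylate the RB protein.

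All 7 measured melanocyte markers (of 8 listed) were above an estimated background in every group. That background, taken on each array as the 95th percentile among its dimmest 25% of genes, was at most 16.2, and the lowest value of any member on any array was 28.5. Of the markers of other cell types, KRT14, CD14, VWF and KDR were above it in all groups. Under DT, 4 of the 7 melanocyte markers fell and 1 rose (quantile 2 and 3), with a summed level of 4205 to 4734 against 5044 to 5737 in DMSO. The 1 measured leukocyte marker, CD14, was at 45.8 to 62.8 in DT and 53.2 to 69.2 in E against 25.3 to 32.3, and rose in both. The sum of the 3 keratinocyte markers was 54.1 to 58.2 in DT against 35.3 to 43.0, with KRT14 higher. The sum of the 2 endothelial markers was 213 to 314 in E and 35.4 to 38.8 in DT against 42.1 to 59.6, with KDR higher in E and lower in DT. VWF differed by 0.29 (log2) in DT and was not called in deposited values. After quantile normalization 1 of these 2 markers fell and 1 rose in DT. The sum of the 2 fibroblast markers was 16.8 to 20.3 in E and 9.6 to 11 in DT against 10.4 to 11.5, with LUM higher in E. The mean of LUM was not above the estimated background in E, and was above it in DTE. The part of these markers in the results was not tested. Overall brightness differed between the arrays. The geometric mean over genes above the median gene was 112 to 139 on the DMSO arrays. It was 94.8 to 108 for DT, 124 to 161 for E and 61.2 to 68.5 for DTE. The sources used here do not give how the level between arrays was set, so each difference is given on the deposited scale and again after quantile normalization, which puts all arrays on 1 distribution (the quantile value). Both are log2 differences from limma with Benjamini-Hochberg adjusted p over all 14582 genes, and rose or fell means an adjusted p under 0.05. With bulk RNA, fewer cells in S phase and less transcript per cell cannot be told apart.

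The promoters of the members are shown because the genes moved together under DT and because 6 of the 7 hold an E2F-type match near their start. That count of 6 includes a variant added after these windows had been read, and the consensus alone was found for 4 members. Each line gives 90 bases, from 70 before the start through the first 20 transcribed bases, read on the gene's strand from RefSeq (GRCh38.p14), with E2F-type matches in capitals.
CDC6: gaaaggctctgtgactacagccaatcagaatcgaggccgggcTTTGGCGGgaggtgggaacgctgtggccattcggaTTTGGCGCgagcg
MCM3: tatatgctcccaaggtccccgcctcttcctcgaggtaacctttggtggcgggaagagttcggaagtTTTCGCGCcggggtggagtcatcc
CDC45: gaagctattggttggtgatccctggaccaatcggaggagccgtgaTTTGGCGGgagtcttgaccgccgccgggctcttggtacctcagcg
GINS2: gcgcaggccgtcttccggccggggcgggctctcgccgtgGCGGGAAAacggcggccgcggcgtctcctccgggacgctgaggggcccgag
MCM10: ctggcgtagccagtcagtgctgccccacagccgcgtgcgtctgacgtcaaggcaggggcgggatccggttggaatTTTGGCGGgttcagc
FEN1: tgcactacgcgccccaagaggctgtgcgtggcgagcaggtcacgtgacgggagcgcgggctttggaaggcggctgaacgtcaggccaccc
TYMS: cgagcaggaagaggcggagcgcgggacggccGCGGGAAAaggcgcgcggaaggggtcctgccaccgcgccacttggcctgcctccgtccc
These stretches lie at chr17:40287809-40287898 (plus strand) for CDC6, chr6:52284723-52284812 (minus strand) for MCM3, chr22:19479850-19479939 (plus strand) for CDC45 and chr16:85688935-85689024 (minus strand) for GINS2. Those of MCM10, FEN1 and TYMS lie on the plus strand at chr10:13161488-13161577, chr11:61792841-61792930 and chr18:657583-657672. CDC45 has 3 starts in the table, and the one shown is the only one with an E2F-type match.

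The E2F consensus was searched as TTTCCCGC, TTTCGCGC, TTTGCCGC and TTTGGCGC on both strands of windows of 300 bases, 250 before the start and 50 from it. A variant, TTTGGCGG, was added after the windows had been read. The consensus was found for CDC6, MCM3, GINS2 and TYMS, that is in 4 of the 9 windows of the members, against 3.31% of all 35116 windows in the table. MCM3 holds it at a pair of places, the farther one from -174 to -167. The variant was found for CDC6, CDC45 and MCM10. It is present in 0.65% of all windows, but it was chosen from the members' windows, so this share cannot serve as a test. FEN1 holds neither in its window. A CCAAT box was found for 5 members, CDC6, MCM3, CDC45, GINS2 and MCM10. It was present in 6 of the 9 windows of the members, against 34.6% of all windows. Among the other replication genes described below, 16 of 29 with a window hold the consensus and 2 of 29 the variant. Those matches lie in 17 and 3 of the 43 windows of these genes. A match is a run of letters and was not tested as a binding site.

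Dabrafenib plus trametinib lowered all 7 members, to between 20.02% and 31.97% of their DMSO level. The 3 DT arrays lay below the 3 DMSO arrays for each of them, where 29.7% of all genes had such a separation in this direction. All 7 fell on both scales, where 23.1% of all genes fell on the deposited scale and 14.6% after quantile normalization. The median of the members was -1.94 (quantile -1.58), and that of all genes -0.12 (quantile 0.0043). Adjusted p was at most 2.7e-09 in deposited values and at most 9.6e-07 in quantile values. Leaving out any 1 array kept all 7 calls.

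Of the loading factors, CDC6, the ATPase that recruits the MCM ring with CDT1, measured 669, 633 and 542 on the DMSO arrays and 209, 184 and 180 on the DT arrays. Its difference was -1.68 ± 0.14 (SE), 3.21-fold lower, with a quantile value of -1.32. MCM3, a subunit of the ring itself, measured 441, 472 and 385 in DMSO and 112, 103 and 122 in DT. The groups are far apart for both genes, and the MCM3 difference of -1.94 ± 0.14 (quantile -1.58) was a 3.84-fold decrease.

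Among the members, the helicase-activating genes GINS2, MCM10 and CDC45 fell most. This order did not hold for the other measured genes described below. Their median was -1.21 (quantile -0.83) for helicase activation and firing and -1.62 (quantile -1.25) for helicase loading. GINS2, a subunit of the GINS complex, measured 227, 238 and 204 in DMSO and 50.7, 41.5 and 41.7 in DT, 5.01-fold lower (-2.32 ± 0.15, quantile -1.93). MCM10, the firing factor that binds the ring and primase, measured 210, 197 and 167 in DMSO and 46.5, 35.8 and 43.7 in DT, 4.56-fold lower (-2.19 ± 0.16, quantile -1.79). CDC45, the helicase cofactor, measured 323, 389 and 294 in DMSO and 84.0, 88.5 and 75.8 in DT, 4.03-fold lower (-2.01 ± 0.14, quantile -1.65). Ranked by the deposited difference from the largest fall over all 14582 genes, GINS2 stood at place 13, MCM10 at 15, CDC45 at 29 and MCM3 at 37, and after quantile normalization at 13, 15, 28 and 41.

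The members outside the helicase fell somewhat less. FEN1, the flap endonuclease, measured 282, 255 and 228 in DMSO and 74.6, 73.4 and 88.2 in DT, 3.24-fold lower (-1.70 ± 0.14, quantile -1.33). TYMS, thymidylate synthase, measured 1111, 1106 and 1003 in DMSO and 333, 344 and 352 in DT, 3.13-fold lower (-1.64 ± 0.13, quantile -1.34). In the RefSeq table the span of TYMS overlaps TYMSOS and ENOSF1 and that of GINS2 overlaps GSE1, and the sources used here do not give whether the probes separate such partners. CDC6, FEN1 and TYMS held places 94, 88 and 106 in the ranking, behind the other members. The 95% intervals of GINS2 (-2.644 to -2.004) and TYMS (-1.911 to -1.378) do not overlap, but the difference between members was not tested.

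**Figure D1:**
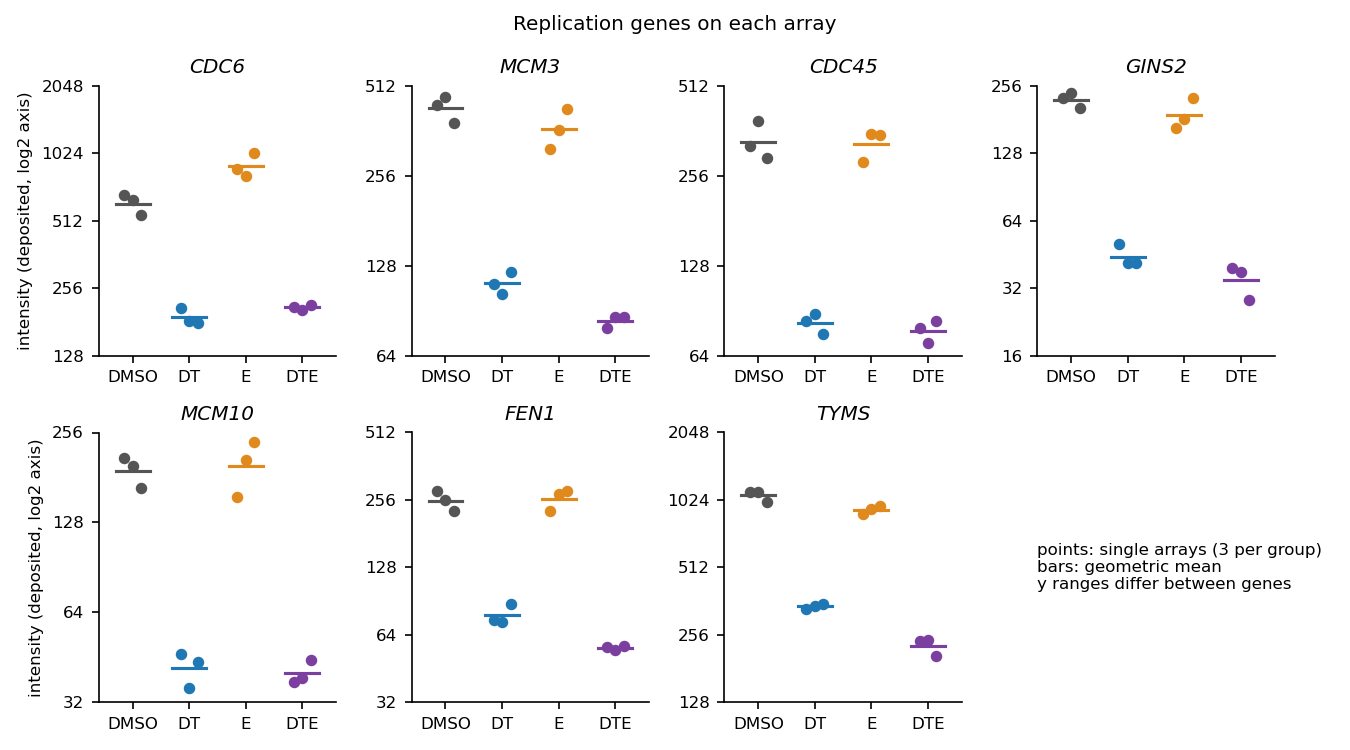
Deposited intensity of each member on each of the 12 arrays, on a log2 axis whose range differs between genes, with points for single arrays and bars for the geometric mean of each group of 3. For each gene the DT and DTE arrays lie below all DMSO and E arrays, and CDC6 is the gene whose E arrays (816 to 1034) lie above its DMSO arrays (542 to 669).

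Most other measured genes of the replication machinery also fell under DT. The lists, chosen with earlier results known, hold 80 genes besides the members, of which 38 were measured, while origin recognition genes and the polymerase and primase subunits are not analysed here. Of the 38 genes, 32 fell and 2 rose (quantile 30 and 3), with a median of -1.33 (quantile -0.97). Of all genes 23.1% fell (quantile 14.6%). All 7 other measured genes of helicase loading fell, among them the ring subunits MCM6 (-1.86 ± 0.14, quantile -1.48), MCM4 (-1.62 ± 0.14, quantile -1.25), MCM2 (-1.67 ± 0.15, quantile -1.29) and MCM5 (-1.64 ± 0.15, quantile -1.26). The largest adjusted p in this list belonged to CDT1, the loader that works with CDC6 (-1.48 ± 0.16, quantile -1.11), and to MCMBP, which binds the MCM subunits (-1.04 ± 0.14, quantile -0.70). Of the 11 other measured genes of helicase activation and firing, 9 fell (quantile 8), led by GINS1 (-1.69 ± 0.15, quantile -1.32) and TICRR (-1.87 ± 0.16, quantile -1.50), which brings activating factors to the ring, with WDHD1 (-1.56 ± 0.16, quantile -1.17) and DBF4, the activator of CDC7 (-1.45 ± 0.16, quantile -1.08). GINS3 measured -0.19 ± 0.16 (adjusted p = 0.45, quantile 0.15) and CDC7, the kinase that phosphorylates the MCM ring, -0.33 ± 0.14 (adjusted p = 0.092, quantile 0.02).

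At the fork itself, the sliding clamp PCNA fell (-1.54 ± 0.14, quantile -1.20), and so did the clamp loader subunit DSCC1 (-1.56 ± 0.16, quantile -1.33) and the nuclease DNA2 (-1.46 ± 0.15, quantile -1.24). All 3 measured fork protection genes fell, from CLSPN (-1.80 ± 0.14, quantile -1.43) and TIMELESS (-1.43 ± 0.16, quantile -1.08) to TIPIN (-0.96 ± 0.14, quantile -0.66). In nucleotide supply, 7 of 10 other genes fell and 2 rose (quantile 6 and 3). DTYMK (-1.48 ± 0.14, quantile -1.13), which phosphorylates the product of TYMS, and the ribonucleotide reductase subunits RRM1 (-1.31 ± 0.15, quantile -0.93) and RRM2 (-1.40 ± 0.15, quantile -1.05) fell, as did SHMT2 (-1.07 ± 0.15, quantile -0.79). DCK, which salvages deoxynucleosides, fell in deposited values (-0.55 ± 0.18, adjusted p = 0.022) and missed the threshold after quantile normalization (-0.34, adjusted p = 0.075). SHMT1 measured -0.11 ± 0.14 (adjusted p = 0.66) and rose after quantile normalization (0.24, adjusted p = 0.035). SAMHD1, which degrades deoxynucleotides (0.86 ± 0.15, quantile 1.13), and RRM2B, the reductase subunit known from non-dividing cells (0.50 ± 0.14, quantile 0.50), rose. RRM2B was near the floor. It measured 12.1, 12.7 and 11.2 in DMSO, below the estimated background of those arrays (13.43, 12.76 and 12.58). In DT it measured 18.9, 14 and 18.5, against a background of 13.25, 13.19 and 12.65. Of 4 genes of replication-coupled chromatin assembly, 3 fell, namely ASF1B (-1.93 ± 0.15, quantile -1.54), UHRF1 (-1.56 ± 0.15, quantile -1.19) and DNMT1 (-1.23 ± 0.15, quantile -0.90), and ASF1A, its paralog, measured -0.24 ± 0.13 (adjusted p = 0.2, quantile 0.09). Of 17 measured E2F and pocket protein genes with their cyclin and kinase partners, 15 fell and 0 rose (quantile 12 and 1). The smallest adjusted p belonged to CDK2 (-1.94 ± 0.15, quantile -1.58), E2F7 (-1.78 ± 0.14, quantile -1.39), the phosphatase CDC25A (-1.74 ± 0.15, quantile -1.39) and E2F1 (-1.91 ± 0.16, quantile -1.54). TFDP2 measured -0.09 ± 0.15 (adjusted p = 0.73) and rose after quantile normalization (0.27, adjusted p = 0.011), while RBL2 measured -0.17 ± 0.15 (adjusted p = 0.46, quantile 0.19).

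**Figure D2:**
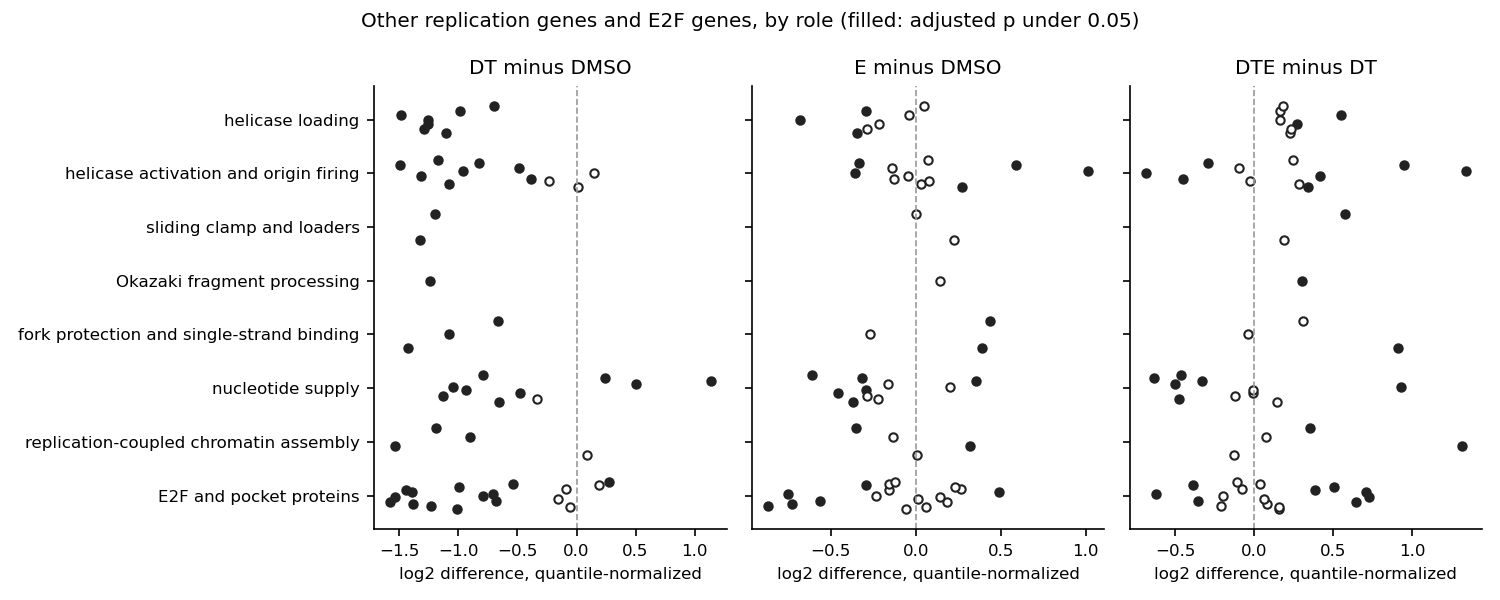
Log2 differences after quantile normalization for the 38 other replication genes and 17 E2F and pocket protein genes, 1 point per gene, grouped by role, in DT minus DMSO, E minus DMSO and DTE minus DT (filled points have an adjusted p under 0.05). In DT minus DMSO 30 of the 38 replication genes fell, where 14.6% of all genes did. In E minus DMSO 11 fell and 7 rose, where 16.3% of all genes fell and 15.1% rose.

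Entinostat alone raised CDC6, and whether other members fell depended on how the arrays were levelled. CDC6 measured 873, 816 and 1034 in E against 669, 633 and 542 in DMSO, so that the groups did not overlap, as for 27.0% of all genes in this direction. It was 1.47-fold higher (0.56 ± 0.14, adjusted p = 0.0035, quantile 0.55, adjusted p = 7.0e-04). It was the 1 member that rose, where 20.8% of all genes rose on the deposited scale and 15.1% after quantile normalization. Its adjusted p stayed at or under 0.025 whichever array was left out, with a difference between 0.46 and 0.63. Centring each array on its median lowered the value to 0.27 (1.21-fold, adjusted p = 0.043).

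For the other 6 members no deposited difference passed the threshold, where 4.81% of all genes fell, and the intervals bound each difference. MCM10 measured 156, 207 and 238 in E (0.05, 95% interval -0.28 to 0.38), FEN1 228, 271 and 281 (0.03, -0.26 to 0.31) and CDC45 285, 355 and 351 (-0.02, -0.32 to 0.28). The E and DMSO arrays overlapped for these 3 genes, and also for GINS2 and MCM3. GINS2 measured 167, 182 and 227 (-0.23, -0.55 to 0.09), MCM3 314, 364 and 430 (-0.23, -0.53 to 0.06) and TYMS 883, 935 and 961 (-0.21, -0.48 to 0.05). The 3 TYMS arrays lay below all DMSO arrays, a separation that 5.86% of all genes showed in this direction. After quantile normalization 1 member fell, MCM3 (-0.31 ± 0.07, adjusted p = 0.0039), where 16.3% of all genes fell, and TYMS measured -0.28 (adjusted p = 0.062). The signs for MCM10 and FEN1 turned to -0.02 and -0.06. With median centring 4 members fell under E, namely MCM3 (-0.52, adjusted p = 0.00048), GINS2 (-0.51, adjusted p = 0.008), TYMS (-0.50, adjusted p = 0.0029) and FEN1 (-0.26, adjusted p = 0.046). With that centring 3813 of all 14582 genes fell. Centring on genes above the median gene gave falls of MCM3 (-0.38, adjusted p = 0.0019) and TYMS (-0.36, adjusted p = 0.027), where 2210 of all 14582 genes fell.

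Among the 38 other replication genes, 2 fell and 7 rose on the deposited scale, against 11 and 7 after quantile normalization. Of all genes, 4.81% fell and 20.8% rose on the deposited scale, and 16.3% and 15.1% after quantile normalization. Named here after their values were seen, GINS4, another subunit of the GINS complex, rose (1.21 ± 0.15, quantile 1.01), as did TICRR (0.70 ± 0.16, quantile 0.59) and CLSPN (0.52 ± 0.14, quantile 0.39). MCM5, a ring subunit beside MCM3, fell (-0.58 ± 0.15, quantile -0.68). The loader CDT1 measured -0.24 ± 0.16 (adjusted p = 0.3) and fell after quantile normalization (-0.35, adjusted p = 0.019), while its partner CDC6 rose on both scales.

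The change of CDC6 relative to MCM3 can be read within each array, where a common factor on all probes of that array cancels. CDC6 was chosen for this after its values were seen, so the ratios are a description. The log2 ratio of CDC6 to MCM3 was 0.42 to 0.60 on the DMSO arrays, 1.17 to 1.47 in E, 0.56 to 0.90 in DT and 1.25 to 1.42 in DTE. The mean ratio was higher by 0.79 in E than in DMSO, and by 0.56 in DTE than in DT, with no overlap of arrays in either pair. The ratios of CDC45 and MCM10 to MCM3 were higher with entinostat, by 0.22 and 0.28 over DMSO and by 0.33 and 0.36 over DT. The CDC45 arrays overlapped in both pairs. In E minus DMSO, CDC45 and MCM10 themselves measured -0.02 and 0.05 (quantile -0.09 and -0.02), and MCM3, the denominator, -0.23 (quantile -0.31). The FEN1 ratio was higher by 0.26 in E than in DMSO but differed by -0.06 between DTE and DT. GINS2 differed from MCM3 by 0.01 and 0.07 in the same pairs, and TYMS by 0.02 and -0.16.

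**Figure D3:**
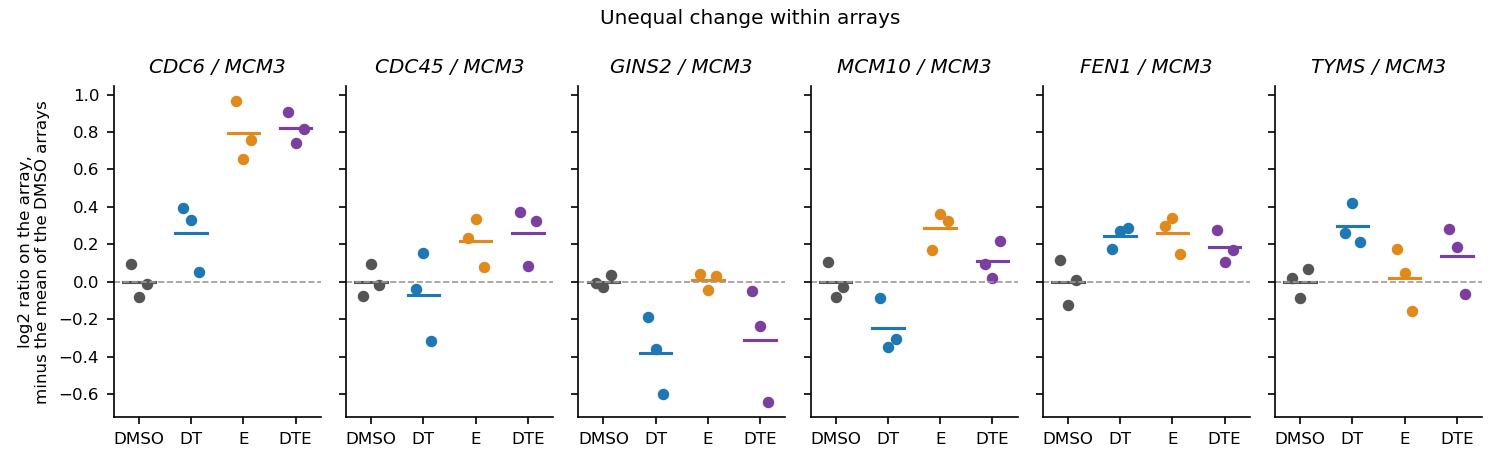
Log2 ratio of each member to MCM3 on the same array, minus the mean of the 3 DMSO arrays, with points for single arrays and bars for group means. CDC6 stands 0.79 higher in E and 0.82 higher in DTE than in DMSO, while GINS2 stands 0.38 lower in DT and 0.31 lower in DTE.

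With all 3 agents the members stayed low. The DTE arrays lay below the DMSO arrays and the E arrays for each of the 7, separations that 63.6% and 79.0% of all genes showed. All 7 fell against DMSO on both scales, where 60.8% of all genes fell on the deposited scale and 22.4% after quantile normalization. The falls ranged from 2.90-fold for CDC6 (-1.54 ± 0.14, quantile -0.46) to 6.36-fold for GINS2 (-2.67 ± 0.15, quantile -1.68). GINS2 measured 39.5, 37.9 and 28.5 on the DTE arrays, 15.8% of its DMSO mean, and CDC6 212, 205 and 216, or 34.3%. Adding dabrafenib plus trametinib to entinostat lowered all 7 again, where 78.5% of all genes fell in deposited values and 9.99% in quantile values. These differences lay between -2.44 (GINS2) and -2.01 (TYMS), and between -1.38 (GINS2) and -0.93 (CDC45) after quantile normalization. The comparisons with DMSO share their control arrays, and those with DTE share the DTE arrays.

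What entinostat added to DT depended on the scale. In deposited values 3 members fell from DT to DTE and 0 rose, where 54.0% of all genes fell and 4.09% rose. TYMS measured 240, 244 and 206 in DTE (-0.58 ± 0.13, adjusted p = 5.2e-04), FEN1 56.7, 54.8 and 57.2 (-0.48 ± 0.14, adjusted p = 0.0047) and MCM3 79.3, 86.3 and 86.3 (-0.42 ± 0.14, adjusted p = 0.015). The DTE arrays lay below the DT arrays for these and for GINS2 (-0.35 ± 0.15, adjusted p = 0.059), a separation that 59.9% of all genes showed. The MCM3 call was lost without DT replicate 3 (adjusted p = 0.068) or DTE replicate 1 (adjusted p = 0.06), while GINS2 passed without E replicate 1, E replicate 3 or DTE replicate 1 (adjusted p = 0.047, 0.044 and 0.041) and when only the groups compared were fitted (adjusted p = 0.045). Without DTE replicate 3 the GINS2 value was -0.20 (adjusted p = 0.32), and without DT replicate 1 it was -0.25 (adjusted p = 0.24). The median of the members, -0.35, was close to that of all genes, -0.41.

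After quantile normalization 4 members rose from DT to DTE and 0 fell, where 16.4% of all genes rose and 17.9% fell. They were CDC6 (0.86 ± 0.10, adjusted p = 1.6e-05), CDC45 (0.63 ± 0.12, adjusted p = 0.0011), MCM10 (0.57 ± 0.09, adjusted p = 2.5e-04) and MCM3 (0.31 ± 0.07, adjusted p = 0.0039). MCM3 was therefore called in opposite directions on the 2 scales. GINS2 (0.25), FEN1 (0.21) and TYMS (0.11) did not pass, with adjusted p of 0.23, 0.091 and 0.49. On the deposited scale CDC45 measured 79.5, 70.7 and 83.6 in DTE against 84.0, 88.5 and 75.8 in DT, and MCM10 37.4, 38.7 and 44.3 against 46.5, 35.8 and 43.7. Their groups overlapped, on arrays whose mean overall level was 65.5 against 103, and the part of that level in the result was not tested. The order of the members was the same on both scales at its ends, with CDC6 highest (0.15 deposited) and TYMS lowest. Among the 38 other replication genes 26 were lower and 2 higher by the test on the deposited scale, and 8 and 12 on the quantile scale. The 2 that rose on the deposited scale were GINS4 (0.69, quantile 1.34) and ASF1B (0.61, quantile 1.315).

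**Figure D4:**
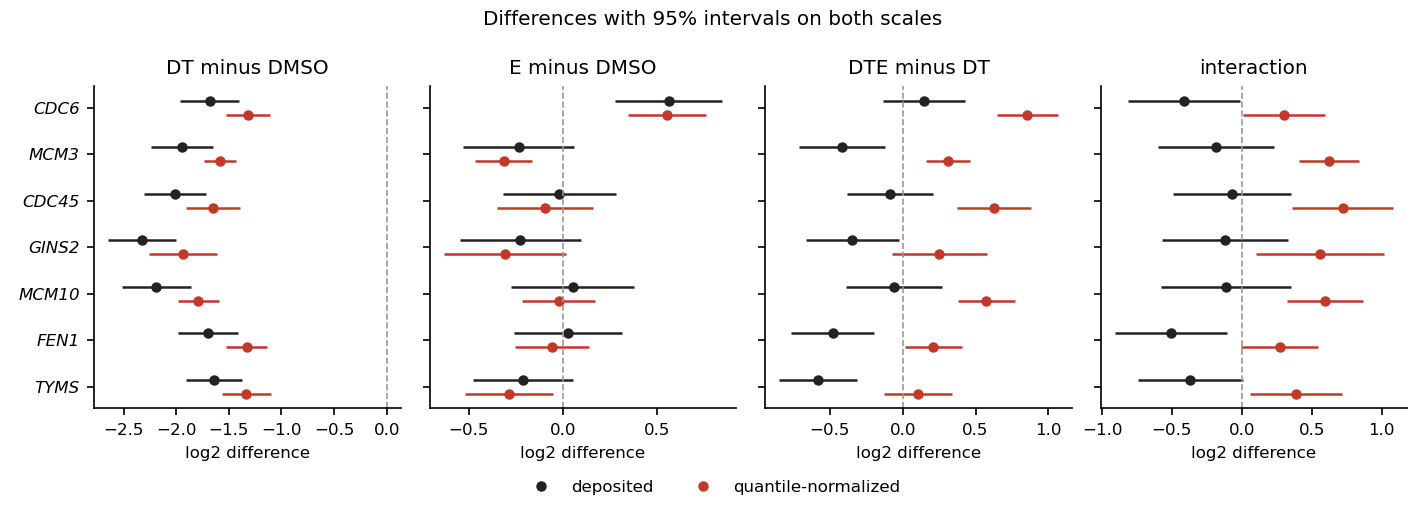
Log2 differences of the 7 members with 95% intervals in 4 comparisons, in deposited values (black) and after quantile normalization (red). The fall under DT and the rise of CDC6 under E appear on both scales, whereas in DTE minus DT and in the interaction the red points lie to the right of the black ones.

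The interaction asks whether entinostat changed a gene by the same log2 amount with DT as without it. In deposited values 1 member passed, FEN1 (-0.51 ± 0.19, adjusted p = 0.028), where 62.5% of all genes had a negative call. That call was lost without DMSO replicate 3, DT replicate 3, E replicate 2, E replicate 3 or DTE replicate 2, with adjusted p of 0.059 to 0.083, and CDC6 (-0.41, adjusted p = 0.066) passed without DMSO replicate 1 (-0.48). The members lay between -0.51 and -0.07, above the median of all genes of -0.63. After quantile normalization the 7 values were positive, from 0.27 (FEN1) to 0.72 (CDC45), against a median of 0.0015 over all genes. Those of MCM3 (0.62 ± 0.10, adjusted p = 0.0037), MCM10 (0.60 ± 0.13, adjusted p = 0.019) and CDC45 (0.72 ± 0.17, adjusted p = 0.028) passed, where 2.08% of all genes had a positive call.

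The genes whose pattern was most like the members were found by correlation over the 12 arrays in quantile values, among genes brighter than the median gene. The arrays form 4 groups, so these correlations mostly describe group means and carry no test. The closest to the mean of the members were CKS1B, a subunit of cyclin-dependent kinases (Pearson r = 0.993), TMEM97 (0.991), LYAR (0.991) and the cell division gene CDCA7 (0.990). They were followed by DUSP4, a phosphatase of MAP kinases, MCM4, GINS1, the checkpoint kinase CHEK1, the nuclear pore gene NDC1 and the mitotic kinase PLK1, the last at 0.986. CKS1B differed from DMSO by -0.88 in DT, -0.04 in E and -0.67 in DTE, a smaller amplitude than that of any member in DT. Taken singly, GINS2 and TYMS were each other's closest gene (0.9885), MCM3 was closest to MCM4 (0.994), MCM10 to GINS1 (0.992), FEN1 to GGCT (0.991), CDC45 to MTFP1 (0.988) and CDC6 to ECT2 (0.988). CDC6 was the member least like each of the other 6, at 0.804 with TYMS and up to 0.917 with MCM10.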

How the data were processed

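The values are linear intensities per probe set, from 2.345 to 8595.5, deposited by the authors. The submitters' processing notes name RMA and Transcriptome Analysis Console, without version or order, and array medians ran from 16.8 to 31.9. Per the labels' protocols, ERCC spike-ins were added before extraction, and the sources used here do not give whether scaling used them. Of 29398 probe sets, 14750 (50.2%) were named for 1 gene, which gave 14582 genes. After log2, with no pseudocount or filter, limma (version 3.58.1 under R 4.3.3) fitted 1 mean per group over all 12 arrays with moderated variances, and Benjamini-Hochberg adjustment covered all genes of each comparison. The members, gene lists and naming rule (all members, and in each list up to 4 genes with the smallest and up to 2 with the largest adjusted p in DT minus DMSO, and those that rose) were chosen with earlier results of these data known. Alternatives were quantile normalization, median centring, centring on genes above the median gene, a filter on dim genes, the mean of probe sets, another variance model, only the groups compared, a replicate block and leaving out each array.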

Additional observations from a re-analysis of the deposited data

Results flagged for a closer look

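For FEN1 the effect of entinostat differed between the DT and the vehicle background in deposited values, with an interaction of -0.51 (limma, adjusted p = 0.028). On that scale 62.5% of all genes had a negative interaction call, and the median of all genes was -0.63. The FEN1 call was lost in 5 of the 12 fits that left out 1 array. After quantile normalization the FEN1 value was 0.27 (adjusted p = 0.29). FEN1 measured 228, 271 and 281 in E, 282, 255 and 228 in DMSO, 56.7, 54.8 and 57.2 in DTE and 74.6, 73.4 and 88.2 in DT. The overall level of the DTE arrays was 65.5 against 103 in DT, and its part in the result was not tested.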

How the results depend on the processing

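The fall of all 7 members in DT minus DMSO, DTE minus DMSO and DTE minus E, and the rise of CDC6 in E minus DMSO, kept direction and call under every alternative run, though the CDC6 rise went from 0.56 to 0.27 (adjusted p = 0.043) with median centring. The filter on dim genes and the mean of probe sets changed no direction or call of a member. DTE minus DT and the interaction changed sign for most members with how the arrays were levelled, and which level is right was not tested. The members were above the estimated background on all arrays, the lowest value being 28.5 against a background of 12.15 on DTE replicate 3. How far background narrowed the differences of the dimmer members was not tested.

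After quantile normalization 4329 genes were called in DT minus DMSO (49.2% of them lower, against 83.0% of 4056 on the deposited scale), 4580 in E minus DMSO (52.0% lower, against 18.8% of 3734), 6261 in DTE minus DMSO (52.3%, against 93.5% of 9490), 4993 in DTE minus DT (52.2%, against 92.9% of 8466), 2923 in DTE minus E (49.8%, against 99.7% of 11489) and 612 in the interaction (50.5%, against 99.7% of 9147). It called 2 members (1 higher, 1 lower) and 18 other replication genes (7 higher, 11 lower) in E minus DMSO, against 1 and 9, with MCM10 at -0.022 and FEN1 at -0.058. It called 4 members and 20 replication genes in DTE minus DT, against 3 and 28, with MCM3 at 0.31, CDC45 at 0.63, GINS2 at 0.25, MCM10 at 0.57, FEN1 at 0.21 and TYMS at 0.11. In the interaction it called 3 members and 13 replication genes, against 1 and 18, with CDC6 at 0.30, MCM3 at 0.62, CDC45 at 0.72, GINS2 at 0.56, MCM10 at 0.60, FEN1 at 0.27 and TYMS at 0.39.

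Median centring called 5512 genes in E minus DMSO (69.2% lower), 10142 in DTE minus DMSO (45.6%), 8086 in DTE minus E (34.8%) and 2540 in the interaction (26.3%). In E minus DMSO it called 5 members, 1 higher and 4 lower, and 20 replication genes, 3 higher and 17 lower, where the deposited scale gave 1 and 0 members and 7 and 2 replication genes. MCM3 was at -0.52, GINS2 at -0.51, TYMS at -0.50 and FEN1 at -0.26, and MCM10, not called, at -0.23. It called 3 members in DTE minus DT, all higher, with MCM3 at 0.027, CDC45 at 0.36, GINS2 at 0.10 and MCM10 at 0.38. Of all 14582 genes, 3519 were called higher and 3737 lower in that comparison. In the interaction it called 4 members and 12 replication genes, with CDC6 at 0.32, MCM3 at 0.55, CDC45 at 0.66, GINS2 at 0.61, MCM10 at 0.62, FEN1 at 0.22 and TYMS at 0.36.

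Centring on genes above the median gene called 6248 genes in DT minus DMSO (31.3% lower), 11054 in DTE minus DMSO (23.5%), 8417 in DTE minus DT (24.9%), 8876 in DTE minus E (16.3%) and 3016 in the interaction (17.4%). It called 3 members (1 higher, 2 lower) and 20 replication genes (6 higher, 14 lower) in E minus DMSO, with MCM10 at -0.10 and FEN1 at -0.12. Of all 14582 genes, 2401 were called higher and 2210 lower in E minus DMSO. It called 4 members and 21 replication genes in DTE minus DT, with MCM3 at 0.24, CDC45 at 0.57, GINS2 at 0.31, MCM10 at 0.59, FEN1 at 0.17 and TYMS at 0.073. In the interaction it called 4 members and 16 replication genes, with CDC6 at 0.39, MCM3 at 0.62, CDC45 at 0.73, GINS2 at 0.68, MCM10 at 0.69, FEN1 at 0.30 and TYMS at 0.43.

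On the deposited scale 2 of 18 same-numbered pairs had a correlation of deviations over 0.1, and 3 of 12 arrays were closest to one of their own number. After quantile normalization these counts were 0 of 18 and 5 of 12. The correlations showed no clear pairing by replicate number, but with 3 arrays per group they cannot exclude one. A replicate block on the deposited scale changed no call of a member. The replicate block after quantile normalization left the members' values as given for that setting and called 4240, 4496, 6221, 4883, 2855 and 564 genes in the 6 comparisons in the order above. It called 2 members and 17 replication genes in E minus DMSO, 4 and 19 in DTE minus DT, and 3 and 11 in the interaction. A variance model with trend and robust fitting called 3 members in the interaction (FEN1, CDC6 at adjusted p = 0.044 and TYMS at 0.05 after rounding).

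Leaving out 1 array at a time gave 0 to 2 members called in the interaction, the 2 without DMSO replicate 1 and 0 without the 5 arrays named for FEN1. In E minus DMSO it moved CDC45 between -0.11 and 0.10, MCM10 between -0.0845 and 0.22 and FEN1 between -0.051 and 0.12. In DTE minus DT it moved GINS2 between -0.44 and -0.20 (adjusted p 0.041 to 0.32) and MCM10 between -0.17 and 0.017. In the interaction it moved CDC45 between -0.18 and 0.021, GINS2 between -0.21 and 0.027 and MCM10 between -0.28 and 0.023.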
